A study of Mus musculus with 16 samples.

Results

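CpG-dense stretches of the mouse oocyte genome are as a rule either almost free of methylation or almost fully methylated, and the stretches described here are those that fell between these states. They are 1-kb windows of the 19 autosomes of the GRCm38 assembly in which at least 80 cytosine positions of CpG sites were covered by at least 1 of 16 libraries, with at least 100 methylation calls in all. Of 16705 such windows, 721 (4.32%) had a pooled level between 25 and 75% methylated calls, against 15186 (90.9%) below 25% and 798 (4.78%) above 75%. The windows were chosen by their pooled level over all 16 libraries, so that level is given as a description and was not tested. Windows just inside the lower limit lay at Chn2 (25%) and Armc12 (25.1%), and just outside it at Nog, with 24.97%, and Matn4, with 24.9%. At the upper limit, Kdm6b (74.9%) and Ulk3 (74.7%) were inside, and B9d2 and Snd1 (75.1% each) were outside.

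Each library was made by post-bisulphite adapter tagging (PBAT), a bisulphite sequencing method for small amounts of DNA, from a pool of metaphase II (MII) oocytes of C57BL/6J X CBA/Ca F1 females. The 4 IFC libraries held oocytes from in vitro follicle culture: follicles isolated at the early preantral stage from females aged 13 days grew in culture over 10 days, to an age equal to 23 days. The 5 SO libraries came from superovulated prepubertal females of 23 days, given 2.5 IU of equine and then of human chorionic gonadotropin 48 hours apart, and the 4 SOA libraries from superovulated adults of 10 weeks, given 5 IU of each. The 3 IV libraries held oocytes ovulated without hormones by adults of 10 weeks whose cycles had been synchronised by male pheromones. SO and SOA therefore differed in age and in dose at once, and IFC and SO in the place of growth and in the route of stimulation. The oocytes kept their polar bodies, whose DNA is part of each pool. Libraries held from 5218053 to 23065411 calls. The deepest IFC library held 8231898 calls and the shallowest IV library 15644144, and SO and SOA held both shallow and deep libraries, so depth and group were partly tied. Among 46 windows of maternally imprinted genes 32 lay above 75%, and of 7 windows of paternally imprinted genes none did and all lay below 25%.

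As background, DNA methylation of the oocyte is laid down during growth by the DNMT3A and DNMT3L complex, mainly over transcribed gene bodies. CpG islands at active gene starts carry H3K4 trimethylation and stay free of methylation, whereas islands that lie within a transcribed unit, maternal imprints among them, become methylated. An intermediate level over 1 kb can come about where a window spans an edge between the states, or where molecules of the pool differ over its whole length.

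The 5 stretches below show what these windows look like in the reference, on the forward strand of GRCm38, with each CpG in capitals. Sema5b (chr16:35660009-35660308, 36 CpGs), Emx1 (chr6:85190369-85190668, 30 CpGs) and Eef2k (chr7:120843015-120843314, 26 CpGs) are the most CpG-rich 300 bases of windows called between groups. Ndufc1 (chr3:51408350-51408649, 11 CpGs) is the middle of the window with the largest range among well-covered ones, and Kif26a (chr12:112175520-112175819, 28 CpGs) is part of the longest run of adjoining intermediate windows, in a window that was even along its length.
Sema5b: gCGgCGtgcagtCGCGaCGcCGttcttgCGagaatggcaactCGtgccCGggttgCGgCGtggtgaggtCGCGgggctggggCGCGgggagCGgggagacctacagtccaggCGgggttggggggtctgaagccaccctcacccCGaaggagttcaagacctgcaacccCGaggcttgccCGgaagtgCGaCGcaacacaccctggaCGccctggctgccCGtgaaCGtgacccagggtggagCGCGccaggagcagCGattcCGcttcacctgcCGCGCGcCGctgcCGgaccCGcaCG
Emx1: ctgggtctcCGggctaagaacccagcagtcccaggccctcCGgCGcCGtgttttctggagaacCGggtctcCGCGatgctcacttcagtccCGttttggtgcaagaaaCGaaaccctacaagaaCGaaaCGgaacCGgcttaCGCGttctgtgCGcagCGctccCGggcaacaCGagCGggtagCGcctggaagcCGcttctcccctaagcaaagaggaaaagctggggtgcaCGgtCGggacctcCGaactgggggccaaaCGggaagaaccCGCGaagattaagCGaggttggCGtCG
Eef2k: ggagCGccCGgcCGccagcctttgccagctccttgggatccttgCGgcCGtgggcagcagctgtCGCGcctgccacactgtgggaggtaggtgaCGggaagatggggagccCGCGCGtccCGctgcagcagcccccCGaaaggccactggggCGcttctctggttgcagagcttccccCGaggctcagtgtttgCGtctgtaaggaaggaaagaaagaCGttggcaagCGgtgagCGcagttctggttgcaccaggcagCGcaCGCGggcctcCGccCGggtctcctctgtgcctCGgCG
Ndufc1: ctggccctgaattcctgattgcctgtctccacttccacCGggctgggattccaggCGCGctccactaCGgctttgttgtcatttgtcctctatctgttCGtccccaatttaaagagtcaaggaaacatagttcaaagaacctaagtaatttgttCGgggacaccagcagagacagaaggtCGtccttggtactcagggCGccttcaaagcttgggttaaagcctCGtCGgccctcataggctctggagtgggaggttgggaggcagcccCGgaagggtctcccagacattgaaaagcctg
Kif26a: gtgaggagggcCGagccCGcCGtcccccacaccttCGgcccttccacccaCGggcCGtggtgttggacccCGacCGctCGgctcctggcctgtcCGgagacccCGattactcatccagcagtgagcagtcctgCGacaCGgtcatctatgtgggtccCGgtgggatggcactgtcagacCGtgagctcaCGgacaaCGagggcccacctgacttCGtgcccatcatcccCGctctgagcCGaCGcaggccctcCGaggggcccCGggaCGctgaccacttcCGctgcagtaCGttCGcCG
Pooled within each group, the Sema5b stretch held 95.7% methylated calls in IFC and 92.6% in SO, but 9.29% in SOA and 11.1% in IV. The Emx1 stretch held 96.3% in IFC, 51.1% in either superovulated group and 18.3% in IV. The Eef2k stretch held 19.4% in IFC and 76.5% in SO, against 93.2% in SOA and 92.3% in IV, and the Kif26a stretch lay between 37.1% and 52.9% in all 4 groups.

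Most of the intermediate windows lay at or just inside the starts of coding genes. A start of a transcript of a protein-coding gene fell in 383 of 721 (53.1%), against 69.4% of the windows below 25% and 38.1% of those above 75%. Coding exons without a start held 203 (28.2%), against 13.6% and 50%. Introns of coding genes held 47, non-coding genes 36, intergenic sequence 36, 5′ UTRs 14 and 3′ UTRs 2. The median ratio of observed to expected CpGs was 0.645, between 0.742 in the windows below 25% and 0.591 in those above 75%. The median GC content, 59.6%, was just under both (60.2% and 59.8%). Levels were skewed to the low side, with 263 windows at 25 to 35% and 77 at 65 to 75%. Counting only neighbours that were also CpG-dense, 632 of 676 runs of adjoining intermediate windows were single windows, 43 were pairs, and the only run of 3 lay over coding exons of Kif26a, a kinesin family gene (chr12:112174000-112176999, 29.1%, 44.3% and 36.8%).

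Many of these windows held an edge. Each window was cut into 5 segments of 200 bp, and the highest and lowest segment differed by a median of 46.7 points in the 627 intermediate windows with at least 10 calls in each segment, against 4.40 points below 25% and 9.09 points above 75%. A window limited to a level near 0 or 100% cannot vary much along its length, so this contrast is partly set by the choice of windows. Graded windows, with a range of at least 50 points, numbered 294, even windows, with a range under 20 points, 69, and 264 lay between. Among windows with at least 30 calls in each segment, the steepest included Ndufc1, a subunit of respiratory complex I, with 98.9 points, and Trmt2a, a tRNA methyltransferase (chr16:18249000-18249999), with 98.4 points. In Ndufc1 the 5 segments held 97.4%, 100%, 56.6%, 1.14% and 1.21% methylated calls. At the other end, beside windows of Sfi1, stood Gli2, a transcription factor of Hedgehog signalling (chr1:118837000-118837999), with a range of 8.41 points.

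**Figure D1:**
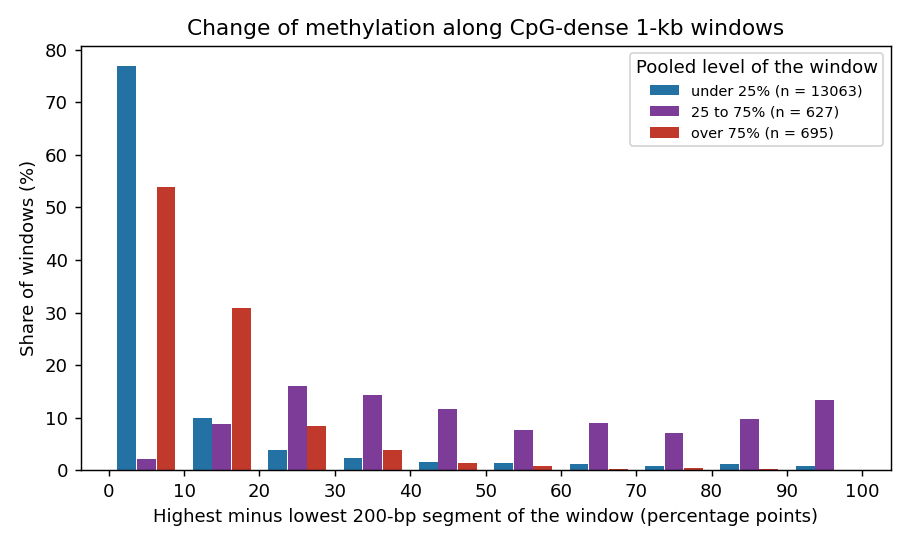
Share of CpG-dense windows (y, %) by the difference between their highest and lowest 200-bp segment (x, percentage points, bins of 10), for windows below 25% (blue, n = 13063), at 25 to 75% (purple, n = 627) and above 75% (red, n = 695). The intermediate windows are spread over the whole axis, with 13.4% of them in the last bin, whereas the other classes pile up in the first.

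In 278 of 721 windows (38.6%) the 1 kb on one side lay below 25% and the 1 kb on the other above 75%, and among graded windows this held for 214 of 294 (72.8%). Graded windows of the other classes had a low and a high side in 600 of 717 (83.7%) below 25% and 8 of 11 above 75%. Among graded windows such sides were therefore not particular to the intermediate ones. Over all windows, graded or not, the counts were 1816 of 15186 below 25% and 30 of 798 above 75%. Both neighbours lay above 75% in 46 intermediate windows and below 25% in 4. Whatever their CpG density, both neighbours were themselves at 25 to 75% in 145 windows, and 1 was in a further 146 beside a high side, 93 beside a low side and 3 beside an unmeasured one. Of the 69 even windows 3 had a low and a high side. Even windows also lay further from gene starts, at a median distance of 6551 bp from the nearest start of a coding gene, against 763 bp for graded ones.

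Read in the direction of transcription, the edge mostly rose into the gene. Of 437 intermediate windows within 2 kb of a coding start and with both sides measured, 183 had a low upstream and a high downstream side and 43 the reverse. In graded windows the counts were 151 and 33 of 234, and the median level climbed from 6.23% in the segment nearest upstream through 45.1% in the middle to 84.0% in the last. The same direction prevailed in windows pooled under the lower limit, with 1268 and 374 of 11938. In the graded ones among them the counts were 423 and 119 of 635. Their median level climbed from 1.996% in the first segment to 64.8% in the last. The rise into the gene was thus not particular to intermediate windows. The middle of 228 of the 440 intermediate windows near a start lay at least 500 bp downstream of it. Of 179 the middle lay within 500 bp, and of 33 at least 500 bp upstream. Around the 419 genes concerned, the pooled level was 55.2% in the bin centred at -4625 bp, 22.1% at -125 bp, 21.6% at 125 bp and 72.3% in SO at 2125 bp, the latter with 70.8 to 74.6% in the other groups.

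**Figure D2:**
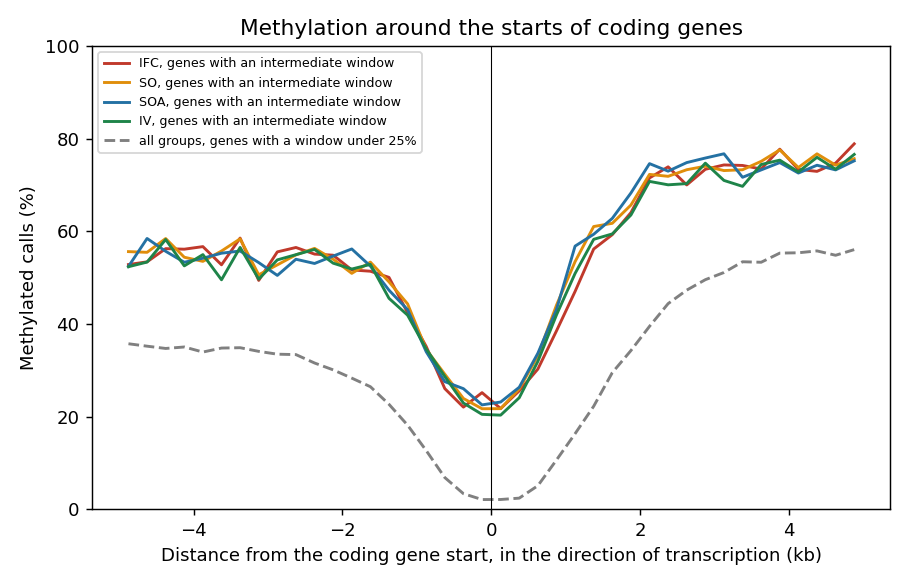
Methylated calls (y, %) in 250-bp bins against the distance from the coding gene start (x, kb, positive into the gene), pooled over the libraries of each group, for 419 genes with an intermediate window within 2 kb (coloured lines) and for genes with a window below 25% (dashed, all groups). The 4 groups run together, with a median span of 3.56 points per bin and a largest span of 9.78 points at 1125 bp; the dashed line falls to 2.09% just before the start.

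Within a pool, the same position often gave both kinds of call. Where a position was read by exactly 2 calls in 1 library, the calls differed in 35.6% of 4654 such pairs in even windows, close to the 38.9% that independent draws at each library's window level would give. In graded windows they differed in 22.1% of 19552 pairs, against 39.7% under independent draws. In windows above 75% the shares were 9.72% and 12%. Pooled over libraries, 63.6% of positions with at least 5 calls in even windows lay between 25 and 75%, against 33.5% in graded windows. Even and graded windows were told apart by the segment levels of these same calls, so their contrast in positions and in pairs follows in part from that sorting. The counts of positions and pairs leave out 6 windows with over 10 calls per position.

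Those 6 windows stood apart in depth, against a median of 4.73 calls per position over all intermediate windows. Gm26917, a non-coding gene, gave 67620 and 62310 calls in adjoining windows (chr17:39844000-39845999, 228 and 227 calls per position, 25.4% and 26.9%). Sfi1, which encodes a centrin-binding protein of the spindle pole, held 22925 calls at its start (chr11:3193000-3193999, 43.4%) and 7172 in an intron (chr11:3150000-3150999, 62.7%). Zc3h7a (chr16:11144000-11144999) gave 10969 calls at 28.3%, and the non-coding Gm49692 1625 calls at 65.4%. Reads of several genomic copies placed on 1 site give such depth. Whether they did so here was not tested. The pair of Sfi1 windows were the only members measured in all 16 libraries that stayed between 25 and 75% in each of them, from 37.1 to 51.9% and from 51.9 to 73.8%.

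Single libraries otherwise scattered widely. Of the 216 windows with at least 5 covered positions in every library, 139 had at least 1 library below 25% and at least 1 above 75%, and the median range over the libraries was 80 points. The shallowest library of such a window gave a median of 7 calls. The dispersion over the 16 libraries, which is 1 for independent calls at the same level in every library, had a median of 5.13 in the intermediate windows, against 1.32 below 25% and 1.91 above 75%. Neighbouring positions read on 1 fragment, differences between groups and uneven coverage along a window all enter it, and their parts were not tested.

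Averaged over these 216 windows, the libraries of the 4 groups overlapped. The IFC libraries held 44.4, 46.1, 43.2 and 34.2%, the SO libraries 51.0, 47.5, 43.5, 40.8 and 43.4%, the SOA libraries 50.3, 49.0, 45 and 41.7%, and the IV libraries 42.5, 42.8 and 41.5%. Group means were 42.0 ± 5.28% (SD, n = 4) in IFC, 45.3 ± 4.02% (n = 5) in SO, 46.5 ± 3.91% (n = 4) in SOA and 42.3 ± 0.693% (n = 3) in IV. IFC4 was the lowest library, and without it the IFC mean was 44.5%. IFC4 and IV1 were also the lowest in the windows above 75%, with 87.5% and 85.6% against 90.6 to 94.8% in the other libraries. The study suspected that IV1 held a little DNA of somatic cells, which was not tested here and bears on its values throughout. The 7 libraries of over 12000000 calls lay between 40.8 and 43.5%, and the part of depth in the group means was not tested.

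**Figure D3:**
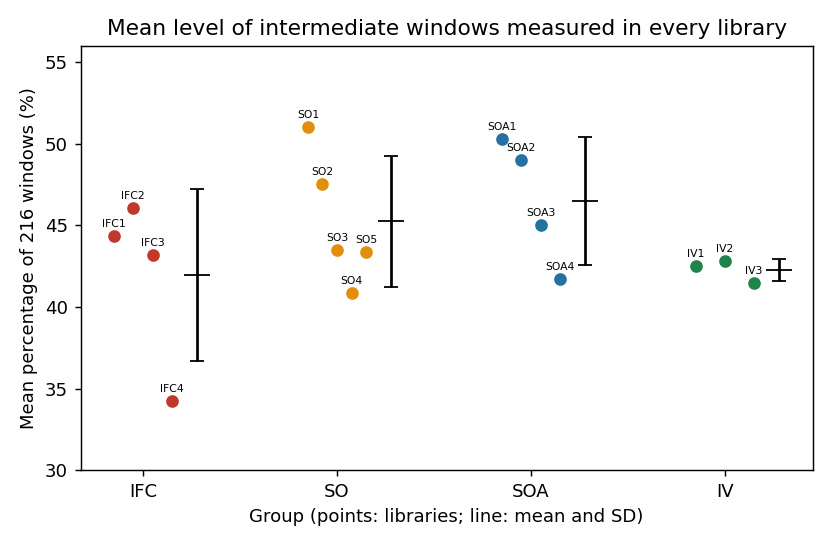
Mean percentage over the 216 intermediate windows measured in every library (y, %, axis from 30 to 56) for each library (points) by group (x), with the mean and SD of the group. IFC4 sits lowest at 34.2%, and every pair of groups overlaps.

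Group differences of single windows were then tested with a logistic model of the calls, the same kind of model as the authors fitted. It ran over all CpG-dense windows with at least 5 covered positions in every library of both groups. A window was called at a Benjamini-Hochberg adjusted p under 0.05 and a difference of group means of at least 20 points. Between IFC and SO, which differ in growth in culture or in the animal, 77 of 365 intermediate windows tested (21.1%) were called, 49 lower and 28 higher in IFC, against a background over all dense windows of 1.54%, 0.871% and 0.668%. Between SO and SOA, which differ in age, 66 of 295 (22.4%) were called, 39 lower and 27 higher in SO, against 1.57%, 0.878% and 0.696%. SOA and IV, adults with and without hormones, differed in 33 of 374 (8.82%), 7 lower and 26 higher in SOA, against 0.708%, 0.142% and 0.566%. IFC and SOA differed in 84 of 278 (30.2%), 55 lower and 29 higher in IFC, against 2.33%, 1.43% and 0.903%. A window near 0 or 100% has little room for a 20-point difference, and a window that differs between groups is pooled to a middle level, so the excess over the background follows in part from how the windows were chosen.

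The likelihood-ratio test allows for counting error only. The median dispersion within groups was 4.60 to 4.78 in the 4 comparisons. A quasi-binomial F test, which scales by that spread, called 0, 1, 0 and 0 intermediate windows in the order above, against 0, 2, 2 and 0 of all dense windows (0%, 0.0303%, 0.0236% and 0%). By limma on the library percentages, 0 of the intermediate windows and 0 of all dense windows were called in each comparison. At an unadjusted p under 0.05 the F test held 40, 39, 15 and 50 of the windows tested (11%, 13.2%, 4.01% and 18%, against 12.7%, 13.7%, 12.3% and 19.8% of all dense windows), and limma 51, 35, 12 and 53 (14%, 11.9%, 3.21% and 19.1%, against 2.89%, 2.26%, 5.83% and 2.87%). The F test's shares lay below those of all dense windows in each comparison, whereas limma's lay above them in all but SOA vs IV. The single window called by the F test was Sema5b between SO and SOA. The windows named below were picked for the size of their difference, so the unadjusted exact permutation p given with them only describes how far apart the groups lay. Apart from Sema5b, none was called by the F test or by limma on the library percentages after adjustment over all windows.

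**Figure D4:**
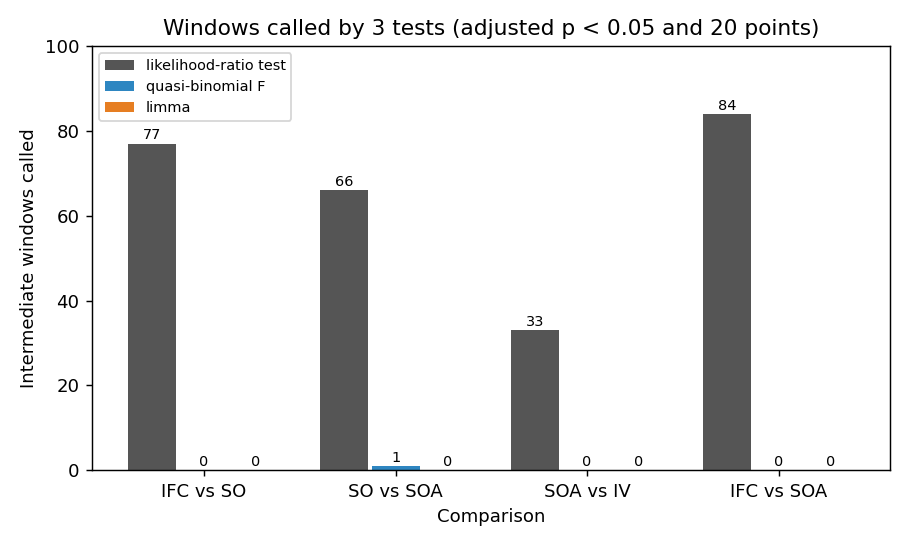
Number of intermediate windows called at an adjusted p under 0.05 and 20 points (y) in each comparison (x) by the likelihood-ratio test of the logistic model (grey), the quasi-binomial F test (blue) and limma (orange). The first gave 77, 66, 33 and 84 calls, and the others at most 1.

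Sema5b, a transmembrane semaphorin of axon guidance, showed the clearest difference, in a window over a coding exon (chr16:35660000-35660999, 580 calls, pooled 49.0%). It held 98, 100, 96.3 and 64.3% in the IFC libraries, 94.1, 91.7, 61.5, 95.9 and 93.3% in SO, 17.9, 9.68, 10.0 and 13.2% in SOA, and 9.38, 8.11 and 28.6% in IV. All libraries of 23-day females or cultured follicles were high and all libraries of adults low, without overlap. SO exceeded SOA by 74.6 points (87.3 ± 14.5%, n = 5, against 12.7 ± 3.80%, n = 4; exact permutation test, two-sided p = 0.00794, the smallest it can give). The adjusted p was 5.03e-51 by the logistic model and 0.0399 by the quasi-binomial F test, but 0.245 by limma. IFC exceeded SOA by 77.0 points (exact permutation p = 0.0286, the smallest for 4 against 4; adjusted p = 0.128 by the F test).

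Emx1, a homeobox transcription factor of the forebrain, was highest in cultured oocytes, in a window of an intron (chr6:85190000-85190999, 748 calls). The IFC libraries held 95.8, 100, 100 and 95.8%, the SO libraries 56.8, 16.7, 36.4, 16.9 and 63.5%, the SOA libraries 50, 75, 0 and 34.3%, and the IV libraries 35.3, 10.3 and 6.06%. Each IFC library lay above each library of the other groups. IFC exceeded SO by 59.9 points (exact permutation p = 0.00794; F test adjusted p = 0.207) and SOA by 58.1 points (exact permutation p = 0.0286; F test adjusted p = 0.128).

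The reverse order was seen at Hmg20b and Eef2k. Hmg20b, a subunit of the LSD1 and CoREST complex that removes histone methylation (chr10:81346000-81346999), held 17.9, 6.25, 11.5 and 7.69% in IFC, 10.5, 0, 39.1, 37.5 and 33.3% in SO, 60.9, 66.7, 88.2 and 81.2% in SOA, and 66.7, 77.4 and 46.5% in IV. Adult libraries were all above the others. The difference of SO from SOA was -50.2 points (exact permutation p = 0.00794; F test adjusted p = 0.0702), and that of IFC from SOA -63.4 points. Eef2k, the kinase that slows translation elongation through eEF2, held 5.00, 0, 25.6 and 0% in IFC at its start (chr7:120843000-120843999), 66.7, 60.7, 69.6, 37.9 and 11.1% in SO, 89.7, 92.5, 100 and 90.3% in SOA, and 83.3, 69.4 and 89.7% in IV. At Eef2k most SO libraries lay between IFC and the adult groups. SO5 lay within the range of IFC, and SO3, at 69.6%, just above IV2, at 69.4%. With -85.4 points (7.66 ± 12.2%, n = 4, against 93.1 ± 4.75%, n = 4; exact permutation p = 0.0286; F test adjusted p = 0.115), it was the largest difference between IFC and SOA among the windows called.

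**Figure D5:**
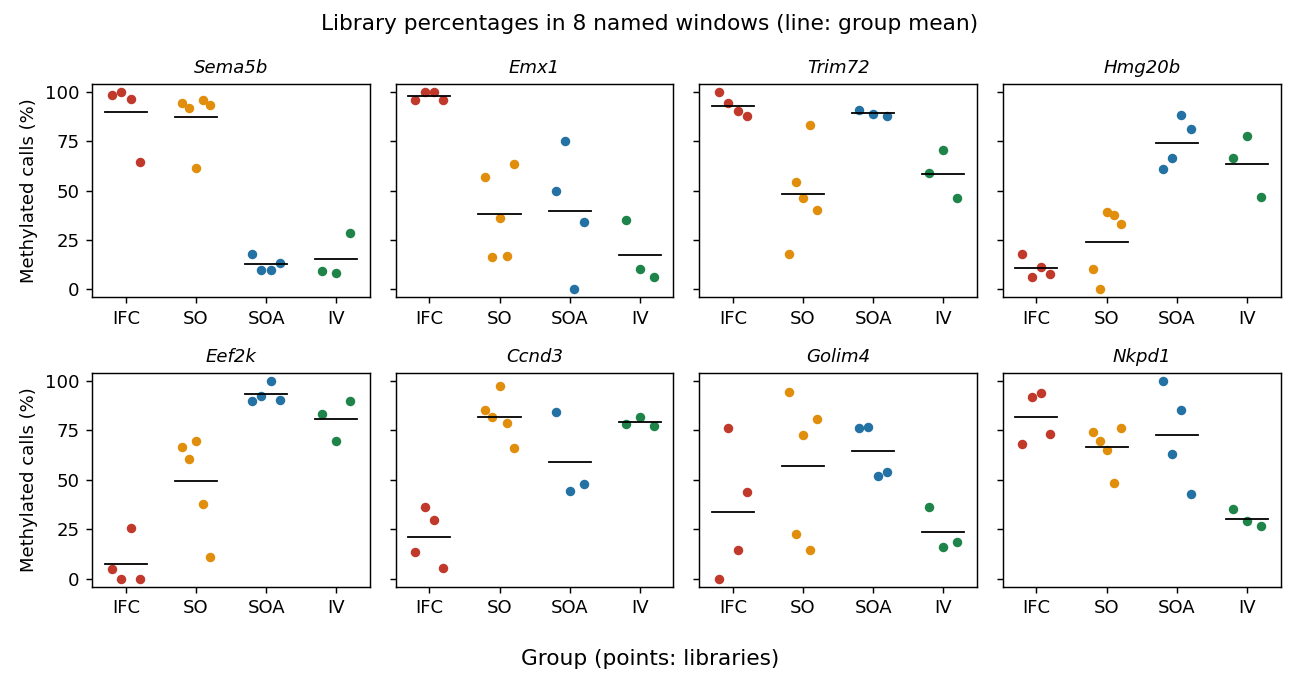
Methylated calls (y, %) of each library (points) and the group mean (line) by group (x) in 8 windows named by the size of their difference. Sema5b is high in IFC and SO and low in SOA and IV, Hmg20b the reverse, Emx1 is above 95% only in IFC and Eef2k below 26% in all IFC libraries.

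Between IFC and SO, the largest deficit in IFC lay over the start of Plpp4, a phospholipid phosphatase, where a pair of adjoining windows was called (chr7:129256000-129257999). The upstream window held 8.33, 0, 0 and 0% in IFC against 100, 90.0, 57.9, 50 and 78.9% in SO, and the window with the start 14.3, 0, 0 and 9.09% against 100, 66.7, 75, 41.1 and 70.2%. No IFC library reached an SO library in either. The upstream window differed by -73.3 points (exact permutation p = 0.00794; F test adjusted p = 0.168), on 5 to 40 calls per library. Ccnd3, which encodes cyclin D3 (chr17:47594000-47594999), held 13.3, 36.4, 29.6 and 5.56% in IFC against 85.2, 81.8, 97.2, 78.6 and 65.9% in SO. It also did not overlap (-60.5 points; exact permutation p = 0.00794; F test adjusted p = 0.122), and its 3 IV libraries held 78.3, 81.5 and 77.2%. Of the 3 SOA libraries with a value, at 84.2, 44.4 and 48%, all but 1 lay below every SO library. Higher in IFC were Trim72, a membrane repair protein of muscle (chr7:128010000-128010999, 92.9 ± 5.46% against 48.4 ± 23.6%), and Atg9b, an autophagy protein (chr5:24387000-24387999, 69.5 ± 26.9% against 25.2 ± 12.2%). The exact permutation p of IFC against SO was 0.0159 for each gene, and the IFC and SO libraries of Atg9b overlapped. At Trim72 the SOA libraries with a value, at 90.9, 88.9 and 87.8%, lay within the range of IFC (87.5 to 100%). Its IV libraries held 58.9, 70.4 and 46.3%, so the high level was not particular to culture.

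Other windows that parted SO from SOA overlapped between the groups. Rbm47, an RNA-binding protein gene (chr5:66151000-66151999), held 11.7 ± 10.4% in SO and 65.8 ± 44.8% in SOA, where SOA3 was at 0%. The matrix protein gene Tnxb (chr17:34680000-34680999) held 31.1 ± 24.5% and 79.9 ± 23.1%, and Ulk4 (chr9:121277000-121277999) 82.9 ± 15.7% and 37.2 ± 30.1%. Their exact permutation p values were 0.0556, 0.0476 and 0.0238.

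In adults with and without hormones the differences were smaller. Nkpd1 (chr7:19523000-19523999), in a coding exon, held 100, 63.0, 85.0 and 43.0% in SOA and 35.2, 29.2 and 26.7% in IV. Golim4, a Golgi membrane protein gene (chr3:75956000-75956999), held 76.2, 76.7, 51.9 and 54.0% in SOA and 36.0, 15.8 and 18.5% in IV. Neither overlapped, with differences of 42.4 points (exact permutation p = 0.0571; F test adjusted p = 0.450) and 41.3 points (exact permutation p = 0.0286, the smallest for 4 against 3; F test adjusted p = 0.235). With depth class (libraries of at least 12000000 calls, or fewer) as a covariate the Nkpd1 difference was 12.6 points. All IV libraries were in the deeper class and of SOA only SOA4, which held the lowest SOA value at Nkpd1, 43.0%. That fit therefore set SOA4 alone against IV and cannot tell depth from a single library. Arpin, an inhibitor of the Arp2/3 actin nucleator (chr7:79935000-79935999), was lower in SOA, with 37.5, 10.0, 50 and 17.0% against 71.9, 66.7 and 69.0% (-40.6 points; exact permutation p = 0.0571; F test adjusted p = 0.259). Bmf, a BH3-only promoter of apoptosis (chr2:118549000-118549999), rested on IV3, which held 90.4% against 25.3 and 9.86% in the other IV libraries; without IV3 its difference was -8.69 points in place of -33.0 (exact permutation p = 0.0857). At Trp53i13 (chr11:77508000-77508999), a graded window with a range of 89.4 points, the difference of -31.7 points was -2.70 points once the level expected from the segments each library had covered was subtracted. Its exact permutation p was 0.114, and with depth class as a covariate, again SOA4 alone against IV, the difference was -5.15 points. IV1 stood apart in the windows above 75%, and without it 32 of the intermediate windows were called in place of 33. Without SOA3 the count was 60 and without SOA4 it was 56.

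Gene families and lists were set beside the 4.32% of all dense windows that were intermediate, and most rested on few windows. Of the 46 windows of maternally imprinted genes only 1 was intermediate, over a 5′ UTR of Gnas (chr2:174329000-174329999, 59.9%), with 95.9% on one side and 8.09% on the other. Gnas encodes the stimulatory G protein alpha subunit from an imprinted locus with several starts. Its libraries ran from 0 to 100% and 3 had fewer than 5 covered positions. Of 24 windows of methylation machinery and maternal effect genes 1 was intermediate, in an intron of Mbd3, a subunit of the NuRD complex (chr10:80398000-80398999, 28.8%), also between a high side (94.4%) and a low one (1.51%). None of 7 windows of paternally imprinted genes, of 8 of germline promoters or of 44 of Sox genes was intermediate. The intermediate share was 18 of 397 (4.53%) for C2H2 zinc finger genes, 2 of 87 for Fox genes (Foxn3 and Foxp1), 1 of 69 for Hox genes (Hoxc4), 2 of 47 for clustered protocadherins and 1 of 3 for keratins (Krt7). It was 41 of 173 (23.7%) for windows in or just upstream of genes at which the study listed islands for their differences on these samples, a choice that is not independent of an intermediate pooled level.

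Krt7, an epithelial keratin, and Foxp1, a forkhead factor, were among those genes. So were Ccnd3, Nkpd1 and Golim4, which the study listed on these samples for the comparisons and directions given above. Krt7 (chr15:101412000-101412999) held 0, 11.1, 72.7 and 55.6% in IFC, 64.4, 100, 19.4, 28.6 and 26.5% in SO, 96.9, 100, 90.6 and 75.3% in SOA and 47.2, 74.3 and 84.6% in IV. Foxp1 (chr6:99522000-99522999) held 35.3, 71.4, 30.3 and 42.9% in IFC, 61.5, 100, 92.9, 68.3 and 80.6% in SO, at least 96.6% in every SOA library, and 100, 19.4 and 69.2% in IV. In both, SOA was the group with the highest lowest library. Of the developmental genes, Shh, the Hedgehog ligand, held a pair of adjoining windows (chr5:28458000-28459999, 26.1% and 44.0%), and Hoxc4 1 window (chr15:103027000-103027999, 32.2%), from 0 to 80% in single IFC libraries. Riox1, a ribosomal oxygenase (chr12:83950000-83951999), held another pair, both graded, at 26.4% and 50.7%, between a side of 84.6% and one of 97.2%.

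Most of the zinc finger windows with most calls overlapped between the groups. Zfp503, a zinc finger protein gene of neural development (chr14:21985000-21985999, 26.2%), was even and held 24.2 to 72.5% in IFC, 7.14 to 62.5% in SO, 0 to 23.3% in SOA and 5.88 to 32.3% in IV, so that IFC and SOA alone did not overlap. Zfp46 (chr4:136290000-136290999, 27.5%), Zfp281, a factor of pluripotent cells (chr1:136625000-136625999, 30.7%), and Zfp692 (chr11:58307000-58307999, 62.5%) overlapped between each pair of groups. Zfp281 was graded, with 12.6% on one side and 92.4% on the other. The protocadherin windows, at Pcdhac1 and Pcdhb7, held 37.4% and 40.3%. A window over an exon of Rbm15b, a gene of the RNA methylation machinery (chr9:106886000-106886999, 34.2%), entered the same list only through Manf, the listed gene, whose annotated span also covers it, and it was graded by 74.0 points and ran from 15.3 to 87.5% in SO. Its 3 IV libraries held 15.8, 17.4 and 27.3%, below each SOA library, of which the lowest was SOA4 with 40.1%. The second Nkpd1 window (chr7:19524000-19524999, 41.6%) held 86.7, 80, 79.2 and 63.6% in IFC and 0, 38.7 and 20.5% in IV, with SO and SOA overlapping both.

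Intermediate windows lay on every autosome, as 2.96% of the dense windows of chromosome 6 at the least and 6.17% of those of chromosome 8 at the most. The strands gave levels that differed by a median of 7.84 points in these windows, against 1.10 points below 25% and 2.31 above 75%, on calls split between the strands.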

How the data were processed

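The members and gene lists were chosen with earlier results of these data known. Per the labels and the methods, the authors trimmed reads with Trim Galore 0.4.4 and cutadapt 1.9.1 and aligned them to GRCm38 with Bismark 0.19.0. The deposited tables give, for each covered CpG position of each strand, counts of methylated and unmethylated calls and their percentage, as the authors' Bismark run wrote them. From 65.5 to 91.5% of the positions of a library had 1 call, so a percentage of a single position says little, and calls were summed over windows of 1000 bp. Reads were mapped to the C57BL/6J reference although the females were F1 hybrids with CBA/Ca, so a C-to-T variant of CBA/Ca reads as an unmethylated call.

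Places came from GENCODE M21 on GRCm38 and sequence from the RefSeq GRCm38 assembly. Where a window overlapped several features, a transcript start of a protein-coding gene took precedence, then coding exon, UTR, intron, non-coding gene and intergenic sequence. Group differences were fitted by logistic regression of each window's methylated and unmethylated calls on group (no covariate, two-sided likelihood-ratio test, Benjamini-Hochberg over all dense windows with at least 5 covered positions in each sample of both groups). Adjusted p values come from fits over all windows: this test, a quasi-binomial F test, and limma 3.58.1 in R 4.3.3 with a variance trend on the mean percentage. Single windows were tested with a two-sided exact permutation test on the absolute difference of means, whose smallest p is 0.00794 for 4 against 5, and 0.0286 for 4 against 4 or 4 against 3. The programs were Python 3.11.15, numpy 2.4.6 and scipy 1.17.1. The likelihood-ratio test, with and without a covariate, and the F test were run on simulated data with the depths of IFC and SO. The exact permutation test and limma were not run on simulated data. Windows named in a comparison are the 3 called members with the largest difference in each direction. Others are up to 4 members of each gene list with most calls, the 5 longest runs, the 5 members with most calls, the windows next to each limit and the extremes of the segment range. Some windows that this rule names are not reported here. Alternatives covered the coverage minimum, the test, the window grid and limits, depth, the replicate number as a block, and each sample left out.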

Additional observations from a re-analysis of the deposited data

Results flagged for a closer look

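In 43 sets of 4 or 5 libraries of a group, the gap from the outermost library to its neighbour was set against the whole range, and 4 exceeded the 95% critical value, where chance gives about 1 in 20. In the window upstream of Plpp4, IFC1 held 8.33% and the other IFC libraries 0 (ratio 1.000). In the Sema5b window IFC4 held 64.3% (0.896) and SO3 61.5% (0.876), each below the other libraries of its group and above every SOA and IV library. In the dense windows above 75%, IFC4 held 87.5% (0.944). The causes were not tested.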

How the results depend on the processing

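The counts of called windows, 77 (culture against SO), 66 (prepubertal against adult superovulation), 33 (SOA against natural ovulation) and 84 (culture against SOA), are set beside the alternatives in that order. They were 26, 27, 20 and 25 with at least 10 positions per sample and 1, 2, 3 and 0 with at least 20, where fewer windows could be tested. They were 0, 1, 0 and 0 with the quasi-binomial F test, 0, 0, 0 and 0 with limma, and 41, 41, 14 and 53 with a limit of 30 points. With limma after subtracting the level expected from the covered 200-bp segments, an alternative chosen after seeing the data, they were 0, 1, 0 and 1, the calls being Sema5b (adjusted p = 0.0348) and Eef2k (adjusted p = 0.0311). Thinned to the shallowest library, IFC vs SO gave 44 and SO vs SOA 41. Windows of at least 100 positions numbered 376 and gave 46 for IFC vs SO, and windows measured in all 16 samples gave 37 for IFC vs SO and 19 for SOA vs IV. SOA vs IV gave 52 with depth class as a covariate. Leaving out 1 sample at a time gave 72 to 99, 59 to 94, 32 to 60 and 83 to 117 calls, and 692 to 715 intermediate windows. Apart from that depth-class fit of SOA vs IV and the replicate block below, the other alternatives stayed within 1.5 times the main counts.

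With the replicate number as a block the counts were 77, 63, 57 and 94, and the shares of all dense windows called were 1.57%, 1.59%, 1.38% and 2.64%. The rise for SOA vs IV was thus not limited to the intermediate windows, since 0.708% of all dense windows were called without the block. No IV library shares the number of SOA4, so the block also took SOA4 out of this comparison. Without SOA4 and with no block the count was 56, and the Nkpd1 difference was 52.3 points in both. Deviations of samples with the same number correlated at -0.0838 to 0.0422, so the numbers did not pair the samples. Of 407 alternative values of the 24 named differences none changed sign and 82 were no longer called, 69 of them with the F test or either use of limma and 6 without 1 library, among them Trp53i13 without SOA1, SOA2, SOA3 or IV2 and Bmf without IV3. A difference that could not be tested under an alternative has no value there. This held for all 24 with at least 20 positions per sample, and for Emx1, Eef2k, Plpp4 and Ccnd3 with at least 10. The shallow libraries were the most limited in coverage, and SOA3, with 5258178 calls, had at least 5 covered positions in 490 of the 721 windows. SOA2, with 5218053 calls, had them in 616 and SO2, with 5247001, in 608. The cause of the gap of SOA3 was not tested. The shallowest library of a window measured in all 16 gave a median of 7 calls.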
